A study of Mus musculus with 6 samples.

Results

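The 10 genes described here encode cell surface chains through which myeloid cytokines act, chosen by name: Csf1r, Csf3r, Csf2ra, Il3ra, Csf2rb, Csf2rb2, Il6ra, Il6st, Il1r1 and Ifngr1. All 10 were found among the 21851 genes of the deposited tables. RNA was sequenced from the bone marrow of wild-type (WT) mice, from cells gated as LT-HSCs, the long-term repopulating stem cells of blood. The mice had been on a control diet (CD, 3 libraries) or on a high cholesterol diet (HCD, 3 libraries) for 3 months. The gate was negative for lineage markers, CD34 and CD135 and positive for Sca1 and c-Kit. The sources used here do not give the animals' age, sex, strain or number per library, so the p-values measure the spread between these libraries, which may be technical.

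Cytokine receptors of this group have no common design. CSF1R is a receptor tyrosine kinase that binds CSF1 and drives macrophage formation, whereas the receptors for G-CSF, GM-CSF, IL-3 and IL-6 lack a kinase and signal through bound JAK kinases to STAT transcription factors. GM-CSF, IL-3 and IL-5 each have their own alpha chain and share the common beta chain CSF2RB, and the mouse has a further beta chain, encoded by Csf2rb2, that serves IL-3 alone. IL-6 binds IL6RA and signals through IL6ST (gp130), IL-1 binds IL1R1 and signals through MYD88, and interferon gamma binds IFNGR1. In stem and progenitor cells these receptors link infection and inflammation to the output of granulocytes and monocytes.

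Of these receptor chains the common beta chain and its IL-3-specific copy are close in sequence, so reads can be hard to assign between them. Csf2rb (chromosome 15, 78325752 to 78353847, plus strand, GRCm38) and Csf2rb2 (chromosome 15, 78282507 to 78305721, minus strand) lie head to head, 20030 bp apart with no other gene of the tables between them. In the GENCODE vM21 transcripts their coding sequences of 2688 and 2634 bases were identical at 95.2% of 2628 ungapped positions, and the longest identical run was 242 bases. The windows printed here show where the copies can and cannot be told apart, read in the sense direction, with capitals at the bases that differ. The most divergent ungapped window of 90 bases differed at 16 positions. It lies in exon 5 of Csf2rb (chr15:78338897-78338986) and in exon 4 of Csf2rb2 (chr15:78294345-78294434).
Csf2rb: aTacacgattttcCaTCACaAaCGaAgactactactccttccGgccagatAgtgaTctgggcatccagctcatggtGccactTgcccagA
Csf2rb2: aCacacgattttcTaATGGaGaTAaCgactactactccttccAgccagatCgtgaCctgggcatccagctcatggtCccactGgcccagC
The middle of the longest identical run lies in exon 15 of Csf2rb (chr15:78348653-78348742) and in exon 14 of Csf2rb2 (chr15:78284706-78284795), and reads the same in both.
Csf2rb and Csf2rb2: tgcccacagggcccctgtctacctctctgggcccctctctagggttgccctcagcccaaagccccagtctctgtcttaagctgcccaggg

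Of all windows of 50 bases in the longest Csf2rb2 transcript 19.0% were also in a Csf2rb transcript, and of all windows of 100 and 150 bases 7.20% and 3.59%. For Csf2rb the shares found in Csf2rb2 were 18.4%, 6.96% and 3.47%. The sources used here give neither read length nor the treatment of reads with several matches, so the split between these copies is uncertain, and their summed level is given beside each of them. Of the other members, Csf3r shared 11.2% of its windows of 50 bases and 0.414% of those of 100 bases with other genes, and the remaining 7 shared 0% at all 3 lengths.

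The values are FPKM (fragments scaled by transcript length and by the mapped fragments of the library), with sums of 427219 to 462370 per library. The size of a single read in the low values put the depth at about 18820000 to 19980000 reads or fragments per library. On these depths and the longest transcript, Csf2ra rested on the fewest reads, about 151 to 226 per library, a counting SD of 8.13% to 6.66%. Csf2rb2 rested on about 187 to 476, a counting SD of 7.31% to 4.58%, and Csf3r on about 1993 to 3007. Such intervals cover counting error only. HCD replicate 2 stood apart: its squared differences from the other HCD libraries were 6.56 and 7.39 times sampling noise, against 2.49 to 2.83 for the remaining pairs within a group and 6.02 to 10.2 between groups. The transcripts of the gate did not all follow the sort, since Cd34 averaged 471 ± 15.4 FPKM (SD, n = 3) under CD and 458 ± 16.96 under HCD, and Flt3 (CD135) 114 ± 1.19 and 105 ± 4.12. In such bulk libraries fewer cells of a type and less RNA per cell cannot be told apart.

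All 10 members passed the filter of at least 1 FPKM in at least 3 libraries. In the CD libraries Ifngr1 had the highest mean level per length (49.4 FPKM, above 86.5% of tested genes), followed by Csf3r (42.7), Il1r1 (19.0), Il6ra (14.0), Csf2rb (12.6), Il6st (11.3), Il3ra (10.9), Csf1r (6.37), Csf2ra (4.36) and Csf2rb2 (2.29, above 9.49%). Among neighbours in this order only Il6st and Il3ra overlapped between libraries. Under HCD the order was Ifngr1, Csf3r, Il1r1, Csf2rb, Il6ra, Il3ra, Il6st, Csf1r, Csf2rb2 and Csf2ra. The libraries of Il1r1 and Csf2rb, of Il6ra and Il3ra, and of Csf2rb2 and Csf2ra overlapped there.

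**Figure D1:**
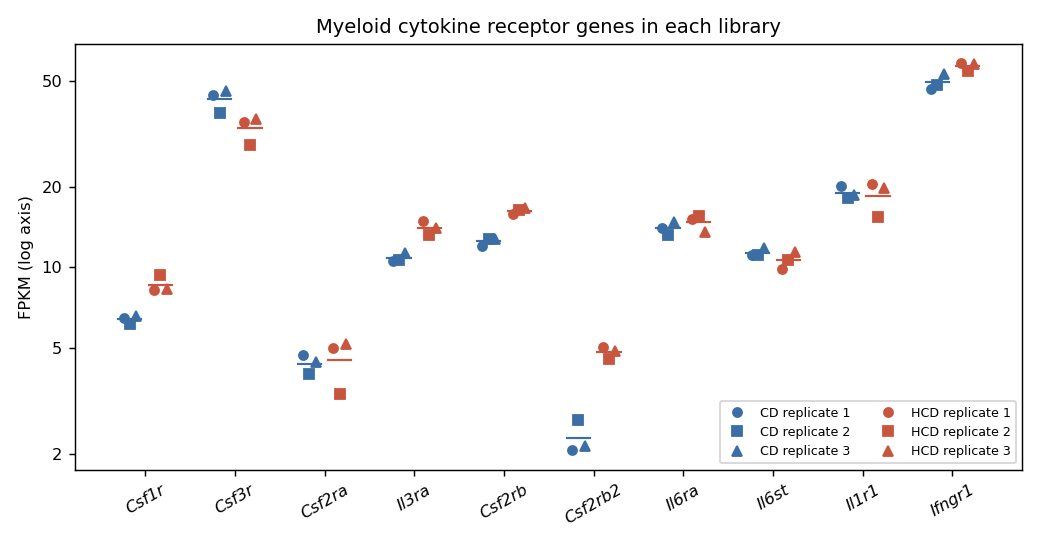
FPKM of the 10 receptor genes (log axis) in each of the 3 CD (blue) and 3 HCD (red) libraries, with marker shape giving the replicate number and a line the group mean. The groups do not overlap for Csf1r, Csf3r, Il3ra, Csf2rb, Csf2rb2 and Ifngr1.

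Setting HCD beside CD asks whether the diet goes with other levels of these receptor transcripts in the sorted cells. Under HCD 4 receptor genes rose (Csf1r, Il3ra, Csf2rb and Csf2rb2) and Csf3r fell, while Csf2ra, Il6ra, Il6st, Il1r1 and Ifngr1 did not pass. The test was limma on log2(FPKM + 1) with p adjusted by Benjamini-Hochberg over all 10676 genes tested, at a threshold of 0.05. Across all tested genes 13.9% passed, 6.28% higher and 7.66% lower under HCD, against 5 of the 10 members. For 6 of the 10 members the CD and HCD libraries were clear of each other, against 37.7% of tested genes. The median log2 change of the members was 0.14, and that of all tested genes -0.033. The 10 members were chosen with earlier results of these data known. These contrasts with all tested genes are thus a description and no test of the group. The number of members that passed went from 5 to 2 when CD replicate 1 was left out, to 3 for CD replicate 2, CD replicate 3 or HCD replicate 1, and to 6 for HCD replicate 2.

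**Figure D2:**
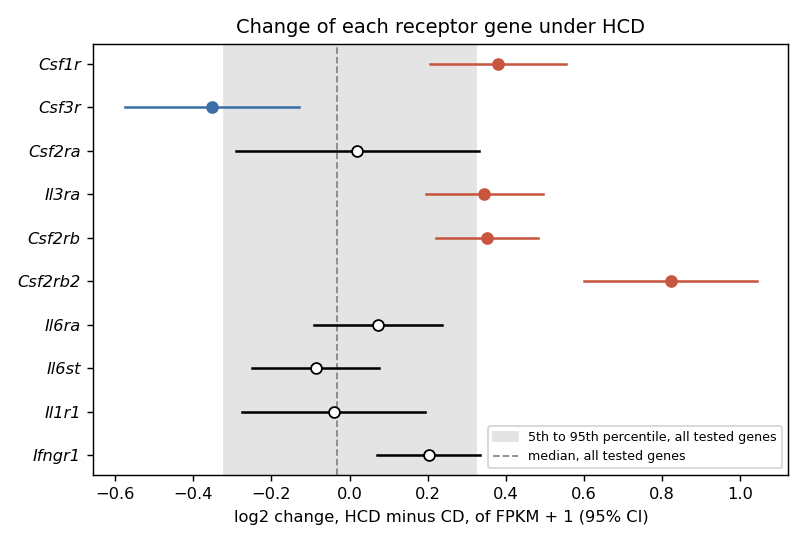
log2 change of FPKM + 1, HCD minus CD, with the 95% confidence interval of the limma fit, for each receptor gene. Filled points passed an adjusted p of 0.05, and the grey band spans the 5th to 95th percentile of all tested genes, -0.32 to 0.32.

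Within the beta common family, both beta chains and the IL-3 alpha chain rose and the GM-CSF alpha chain did not pass. Csf2rb2, the IL-3-specific beta chain, read 2.06, 2.68 and 2.14 FPKM in CD replicates 1 to 3 and 5.03, 4.53 and 4.85 in HCD replicates 1 to 3. Every HCD library was above every CD library, and the mean went from 2.29 ± 0.33 to 4.80 ± 0.25 FPKM (SD, n = 3 each), 2.09-fold. Its log2 change of 0.82 (SE 0.10, 95% CI 0.60 to 1.04; limma adjusted p = 0.00194) was larger in size than that of 99.3% of tested genes.

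Csf2rb, the beta chain shared by IL-3, GM-CSF and IL-5, read 12.1, 12.8 and 12.8 FPKM in the CD libraries and 15.85, 16.4 and 16.7 in the HCD libraries. The groups were clear of each other, and the spread within each was small, with SDs of 0.44 and 0.42 FPKM. The log2 change was 0.35 (SE 0.06, 95% CI 0.22 to 0.48; limma adjusted p = 0.00739). Summed, both beta chains read 14.1, 15.5 and 14.96 FPKM under CD and 20.9, 20.9 and 21.5 under HCD, a log2 change of 0.48 (95% CI 0.35 to 0.61; limma adjusted p = 0.0018), a sum formed after the values were seen. Both genes and the sum passed without any one of the 6 libraries, with log2 changes of 0.77 to 0.90 for Csf2rb2, 0.32 to 0.37 for Csf2rb and 0.45 to 0.51 for the sum.

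Il3ra (chromosome 14, 14346275 to 14356011), the alpha chain that binds IL-3, read 10.6, 10.7 and 11.3 FPKM under CD and 14.9, 13.2 and 14.1 under HCD. All HCD libraries were higher, and the log2 change was 0.34 (SE 0.07, 95% CI 0.19 to 0.49; limma adjusted p = 0.0125). Leaving out CD replicate 1 gave an adjusted p of 0.0651, leaving out CD replicate 2 one of 0.0592, and leaving out HCD replicate 1 one of 0.0529, in a range of 0.00233 to 0.0651 over all settings.

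Csf2ra (chromosome 19, 61223957 to 61228429), the alpha chain for GM-CSF, read 4.68, 3.99 and 4.41 FPKM under CD and 4.96, 3.34 and 5.16 under HCD. HCD replicate 2 was below every CD library and the other HCD libraries were above them all. The log2 change was 0.020 with a 95% CI of -0.29 to 0.33 (limma adjusted p = 0.932), and 0.18 without HCD replicate 2 (adjusted p = 0.151, in a range of 0.151 to 0.949 over all settings).

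Of the CSF receptors outside this family, Csf1r rose and Csf3r fell. Csf1r (chromosome 18, 61100598 to 61132149) read 6.44, 6.11 and 6.57 FPKM under CD and 8.19, 9.38 and 8.26 under HCD. The groups did not overlap and HCD replicate 2 was the highest. The log2 change was 0.38 (SE 0.08, 95% CI 0.21 to 0.56; limma adjusted p = 0.0151). The adjusted p was 0.0643, 0.0679 and 0.0558 without CD replicates 1, 2 and 3, in a range of 0.00876 to 0.0679 over all settings. Pdgfrb, a receptor tyrosine kinase gene of mesenchymal cells, lies just upstream of Csf1r on the same strand (61045150 to 61085061) and rose too, from 15.7 ± 1.05 to 21.8 ± 0.33 FPKM (SD, n = 3 each; limma adjusted p = 0.00311), and whether reads run on from it was not tested.

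Csf3r (chromosome 4, 126024550 to 126044440), the G-CSF receptor gene of the neutrophil lineage, read 44.3, 37.95 and 45.9 FPKM under CD and 35.2, 28.8 and 36.0 under HCD. The groups did not overlap, by the margin between CD replicate 2 and HCD replicate 3, and replicate 2 was the lowest of both groups. The log2 change was -0.35 (SE 0.10, 95% CI -0.57 to -0.13; limma adjusted p = 0.0466), close to the threshold. The adjusted p was 0.101 with no filter on low values, and 0.159, 0.166 and 0.0785 when CD replicate 1, CD replicate 3 or HCD replicate 1 was left out. Over all settings it ranged from 0.00309 to 0.166, the lowest with the replicate number as a block.

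The IL-6 receptor chains and the IL-1 receptor did not pass. Il6ra (chromosome 3, 89864059 to 89913196) read 14.0, 13.2 and 14.8 FPKM under CD and 15.2, 15.5 and 13.6 under HCD, a log2 change of 0.072 (95% CI -0.092 to 0.24; limma adjusted p = 0.529). Il6st (chromosome 13, 112464070 to 112510086), the signalling chain shared by the IL-6 family, read 11.1, 11.1 and 11.8 FPKM under CD and 9.81, 10.7 and 11.4 under HCD, a log2 change of -0.087 (95% CI -0.25 to 0.076; adjusted p = 0.442). Their groups overlapped, and the intervals leave room for changes of up to 0.25 in size on the log2 scale. Il1r1 (chromosome 1, 40225080 to 40317257) read 20.3, 18.1 and 18.7 FPKM under CD and 20.55, 15.4 and 19.8 under HCD, with a log2 change of -0.041 (95% CI -0.27 to 0.19; adjusted p = 0.817). Its lowest library was HCD replicate 2.

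Ifngr1 (chromosome 10, 19591949 to 19610229), the ligand-binding chain of the interferon gamma receptor, read 46.6, 48.4 and 53.2 FPKM under CD and 58.2, 54.7 and 57.8 under HCD. The HCD libraries were all above the CD libraries, but the log2 change of 0.20 (95% CI 0.070 to 0.33) missed the threshold (limma adjusted p = 0.0519). The call depended on the setting: with the replicate number as a block the adjusted p was 0.0345, with TMM-type scaling 0.0355, with a filter of 5 FPKM 0.0492 and without HCD replicate 2 0.0142, in a range of 0.0142 to 0.184 over all settings.

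**Figure D3:**
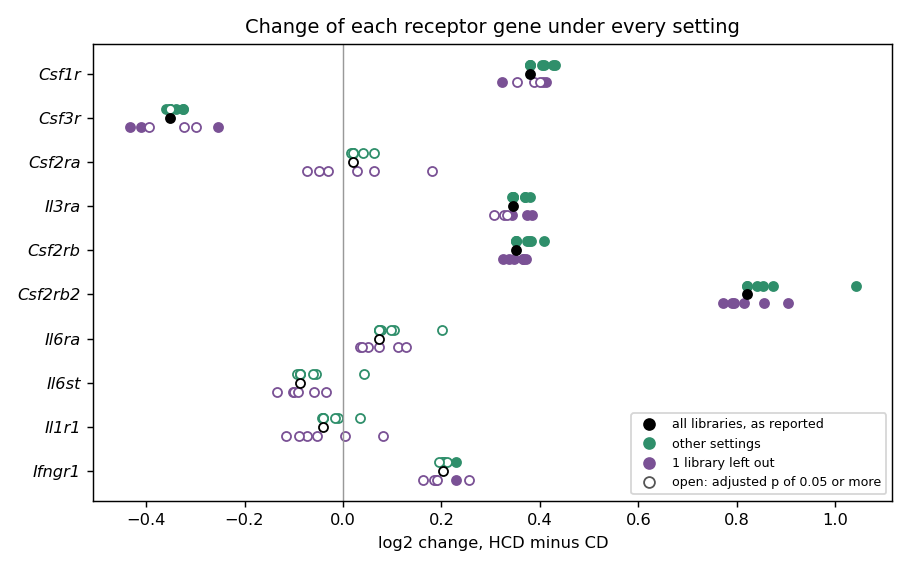
log2 change, HCD minus CD, of each receptor gene as reported (black), under the other settings (green) and with 1 library left out (purple). Open circles have an adjusted p of 0.05 or more. Csf2rb and Csf2rb2 stay filled throughout, and Csf3r ranges from -0.43 to -0.25 when 1 library is left out.

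Since FPKM is per length, the balance of chains within a receptor was also read as a ratio in each library. The ratio of Csf3r to Csf1r, which encode separate receptors, was added to these. The 8 ratios were compared by a two-sided exact permutation test, in which 3 libraries against 3 cannot go below p = 0.10. CD and HCD libraries were clear of each other for 3 of the 8 ratios, each with the smallest exact p of 0.10, or 0.267 after Benjamini-Hochberg adjustment over the 8. Among single tested genes 37.7% had groups clear of each other, so this count does not stand out. Csf2rb2 to Csf2rb and Il3ra to Csf2rb2 are not separate results, since they share Csf2rb2. Every ratio with a beta chain rests on the uncertain split of reads between Csf2rb and Csf2rb2. The ratio of Csf2rb2 to Csf2rb was 0.171, 0.209 and 0.167 in the CD libraries and 0.317, 0.276 and 0.2905 in the HCD libraries. The IL-3-specific beta chain was the smaller in every library, and its share was higher under HCD in all of them. The ratio of Il3ra to Csf2rb2 was 4.80 ± 0.71 under CD and 2.93 ± 0.028 under HCD (SD, n = 3 each, exact p = 0.10), so these HCD libraries lay close together. The ratio of Il3ra to Csf2rb was 0.864 ± 0.027 under CD and 0.863 ± 0.068 under HCD (SD, n = 3 each, exact p = 1.0).

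The ratio of Csf3r to Csf1r was 6.88, 6.21 and 6.99 under CD and 4.29, 3.07 and 4.36 under HCD. Csf3r had the higher level in every library, and by less under HCD, which follows from the fall of Csf3r and the rise of Csf1r. The ratio of Csf2ra to Csf2rb was 0.388, 0.311 and 0.344 under CD and 0.313, 0.204 and 0.310 under HCD, with overlapping groups (exact p = 0.20, unpaired). It was lower under HCD in each of the 3 same-numbered pairs. The 3 ratios whose groups were clear of each other move one way under any pairing, so their pairs add nothing. Il6ra to Il6st was 1.23 ± 0.040 under CD and 1.399 ± 0.19 under HCD (SD, n = 3 each, exact p = 0.30). Ifngr1 stood 5.37 ± 0.25 and 5.71 ± 0.40 times above its partner Ifngr2 under CD and HCD (SD, n = 3 each, exact p = 0.40), and Il1r1 9.26 ± 0.74 and 9.38 ± 0.34 times above its partner Il1rap (SD, n = 3 each, exact p = 0.80).

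**Figure D4:**
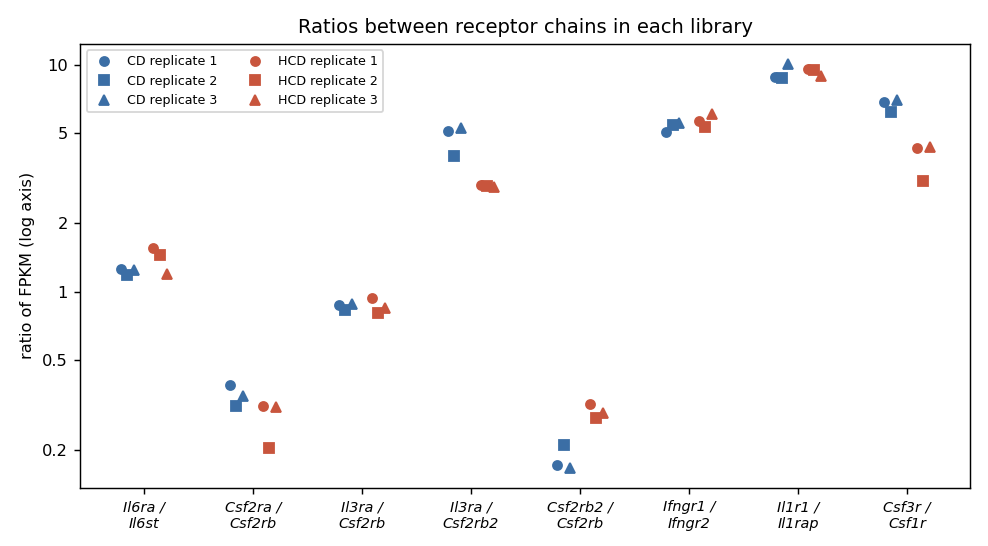
Ratio of FPKM between receptor chains (log axis) in each library, CD in blue and HCD in red, with marker shape giving the replicate number. The groups are apart for Il3ra to Csf2rb2, Csf2rb2 to Csf2rb and Csf3r to Csf1r.

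RefSeq gave promoters (GRCm38.p6, 250 bases before to 50 after the start) for 8 of the 10 members. The promoters of the member with the largest rise and of the only one that fell are printed to show the motifs found in them. Capitals mark matches on either strand to GAGGAA (the core bound by PU.1, a myeloid transcription factor), to TTCNNNGAA (the GAS motif of STAT proteins) and to AGATAA, bound by the GATA family. No motif overlapped another.
Csf2rb2 (chr15:78305672-78305971, minus strand): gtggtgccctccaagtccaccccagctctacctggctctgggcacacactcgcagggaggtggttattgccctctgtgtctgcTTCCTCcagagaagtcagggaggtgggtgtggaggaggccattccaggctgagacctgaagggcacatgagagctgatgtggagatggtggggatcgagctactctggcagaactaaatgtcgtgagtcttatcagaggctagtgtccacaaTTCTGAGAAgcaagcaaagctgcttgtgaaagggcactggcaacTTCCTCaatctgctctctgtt
Csf3r (chr4:126024409-126024708, plus strand): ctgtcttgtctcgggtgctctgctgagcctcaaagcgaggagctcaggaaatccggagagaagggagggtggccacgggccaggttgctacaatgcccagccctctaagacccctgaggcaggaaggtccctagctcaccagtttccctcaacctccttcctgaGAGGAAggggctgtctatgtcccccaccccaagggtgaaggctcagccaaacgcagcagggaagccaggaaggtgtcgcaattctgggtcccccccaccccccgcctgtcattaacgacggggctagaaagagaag
The Csf2rb2 promoter held the PU.1 core at -167 and 30 and the GAS motif at -15, counted from the start to the first base of the match. The Csf3r promoter held 1 PU.1 core, at -86. The Csf2ra promoter held the core at -14 and -8, and that of Il6ra at -70, with AGATAA at -245. None of the 3 motifs was in the promoters of Il3ra, Ifngr1, Il6st or Il1r1. Of all 32851 promoters, 28.3% held the PU.1 core, 8.3% the GAS motif and 11.2% AGATAA.

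The genes whose profile over the 6 libraries was most like a member were found by the root mean square difference of centred log2(FPKM + 1). Those nearest to Csf2rb2 were Lsr (0.088), Rab40b (0.093) and Prtn3 (0.096), against a median of 0.446 over the genes searched. This scale shrinks the changes of low genes. Rab40b, at 0.92, 0.97 and 0.77 FPKM in the CD libraries, passed the filter through the HCD libraries, which leans to a rise. Csf2rb2 rose 2.09-fold and Prtn3, at a far higher level, 1.79-fold, with log2 changes of 0.82 and 0.84. Nearest to Csf2rb were App (0.032), Eya2 (0.036) and Mpdu1 (0.038), and to Il3ra Slc2a8 (0.023), Tfr2 (0.024) and Rusc2 (0.037). Nearest to Csf1r were Mocs1 (0.026), Tmem143 (0.029) and Nkg7 (0.035). Nearest to Csf3r were Plekha1 (0.023), Bard1 (0.037) and Tigar (0.038), none of which passed the test (limma adjusted p = 0.0617, 0.127 and 0.118). With 6 libraries many genes have a like profile, and the list is a description.

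Of 14 ligand genes listed, 2 passed the filter, Csf1 (2.86 ± 0.20 under CD, 2.38 ± 0.15 FPKM under HCD; SD, n = 3 each) and Osm (12.8 ± 0.91 and 17.4 ± 3.46), and neither passed the test (limma adjusted p = 0.174 and 0.0776), 1 of them having an unadjusted p under 0.05. Il3 and Il1a were listed at 0 in all 6 libraries, and Il34, Csf2, Csf3 and Il1rn were under 0.1 FPKM in each. Of the 4 tested partner chains of 8 listed, Ifngr2, Il1rap, Il11ra1 and Il27ra, 0 passed by limma, and 0 of the 4 had an unadjusted p under 0.05. The IL-1 decoy receptor gene Il1r2 averaged 0.29 FPKM under CD and 0.43 under HCD, below the filter. Of the sheddases Adam10 and Adam17, which cut IL-6 and CSF1 receptors from the surface, 0 of 2 passed by limma (adjusted p = 0.906 and 0.132), and 1 had an unadjusted p under 0.05.

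Other cytokine receptor genes went both ways, with 5 of 21 tested higher and 3 lower and a median log2 change of 0.0056. Crlf2, the TSLP receptor gene, rose from 50.8 ± 1.245 to 66.7 ± 4.30 FPKM (SD, n = 3 each; limma adjusted p = 0.00436). The IL-18 receptor chains Il18r1 (2.19 ± 0.25 to 3.50 ± 0.060 FPKM, adjusted p = 0.0102) and Il18rap (13.3 ± 0.12 to 16.4 ± 0.59, adjusted p = 0.0134) rose together, as did Il10ra (8.56 ± 0.34 to 11.4 ± 0.63, adjusted p = 0.0107).

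The genes downstream of the receptors are set beside the 13.9% of all tested genes that passed. Of 17 adaptor and other kinase genes 2 rose, the IL-1 receptor adaptor Myd88 (25.5 ± 1.04 to 30.1 ± 0.66 FPKM; SD, n = 3 each; limma adjusted p = 0.0217) and Gab2 (10.3 ± 0.36 to 13.1 ± 1.21, adjusted p = 0.0289), and 0 fell. Of 13 tested negative regulators 1 rose and 2 fell. Socs3, the inhibitor of IL6ST and G-CSF receptor signalling, rose from 30.6 ± 0.91 to 45.0 ± 6.23 FPKM (adjusted p = 0.00914). Cish, an inhibitor and target of STAT5, fell from 5.79 ± 0.38 to 3.72 ± 0.19 (adjusted p = 0.00562), and the ubiquitin ligase gene Cbl from 22.3 ± 0.22 to 18.8 ± 1.63 (adjusted p = 0.0496).

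Of the pathways' target lists, that of STAT3 had the most calls. These counts stand beside the 13.9% of all tested genes that passed, and the lists below with 1 call were near that share. Of 7 STAT3 targets 3 rose (Junb, Socs3 and Mcl1) and Myc fell, from 145 ± 1.23 to 105 ± 7.27 FPKM (SD, n = 3 each; limma adjusted p = 0.00197). The summed level of that list was 752 to 794 FPKM in the CD libraries and 1141, 850 and 1152 in HCD replicates 1, 2 and 3. HCD replicate 2 was thus the lowest of its group. The sum leans on Junb, which averaged 279 FPKM under CD and 518 under HCD. Pim1 averaged 199 and 211 and did not pass. Of 5 tested STAT5 targets 0 rose and 1 fell, Cish. Of 7 tested IL-1 and NF-kB targets 1 rose, the feedback inhibitor Tnfaip3, from 12.4 ± 0.62 to 32.0 ± 10.96 FPKM (adjusted p = 0.0102). The summed level of that list was 113 to 127 FPKM in the CD libraries and 162, 106 and 171 in HCD replicates 1, 2 and 3. This sum leans on Nfkbia, which averaged 64.0 FPKM under CD and 71.7 under HCD and did not pass (limma adjusted p = 0.582). Of 6 transcription factor genes known at myeloid receptor promoters 1 rose, Cebpe, from 0.98 ± 0.56 to 3.29 ± 0.64 FPKM (adjusted p = 0.00938), a gene that passed the filter through the HCD libraries, which leans to a rise. Spi1, which encodes PU.1, read 60.9 ± 2.02 and 66.9 ± 5.49 (adjusted p = 0.198).

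**Figure D5:**
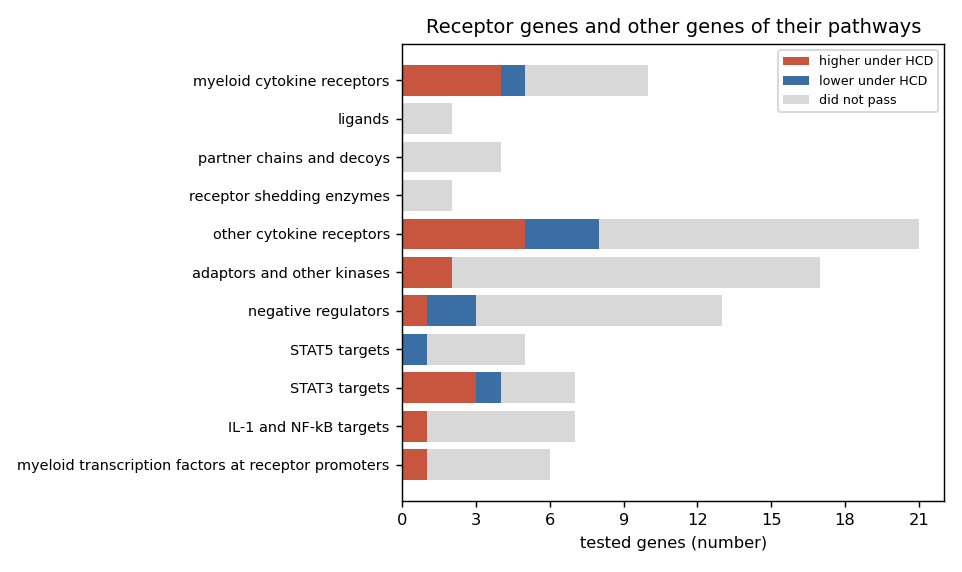
Number of tested genes in each list that were higher (red), lower (blue) or did not pass (grey) under HCD by limma at an adjusted p of 0.05. The receptor genes have 4 higher and 1 lower of 10, and the STAT3 targets 3 higher and 1 lower of 7.

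Markers of other cells also differed between the diets, while 4 receptor genes rose, Csf3r fell and 5 did not pass. Across all tested genes 13.9% passed. All 6 markers of granulocyte and monocyte progenitors rose, with a summed level of 870 to 898 FPKM in the CD libraries and 1610 to 1780 in the HCD libraries. Neutrophil markers rose in 6 of 6 tested, of 9 listed, from a sum of 13.1 to 13.3 to one of 41.6 to 50.5 FPKM. Ngp, Camp, Lcn2 and Retnlg among these passed the filter through the HCD libraries, so that count leans to rises. Of 7 tested monocyte and macrophage markers 4 rose and 2 fell, with sums of 35.7 to 38.2 and 69.0 to 76.6 FPKM, and the falls, of C1qa and C1qb, leaned on a filter passed through the CD libraries. Adgre1 averaged 0.40 and 0.45 FPKM. Of 6 tested basophil, mast cell and eosinophil markers 5 rose and 0 fell, with sums of 37.7 to 42.9 and 66.2 to 78.4 FPKM. No marker of these 4 lists was at 0 in all 6 libraries, and their part in the changes of the receptor genes was not tested.

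Other markers gave these counts higher and lower of those tested, against 6.28% and 7.66% of all tested genes. They were 0 and 0 of 4 gate genes, 2 and 2 of 7 for LT-HSCs and 0 and 0 of 3 for multipotent progenitors. For megakaryocytes they were 3 and 1 of 4 (6 listed), for erythroid cells 0 and 0 of 3 (6 listed). For dendritic cells they were 0 and 2 of 3 (7 listed). For B cells they were 0 and 1 of 4 (8 listed) and for T and NK cells 2 and 1 of 3 (8 listed). For stroma and endothelium they were 2 and 0 of 2 (7 listed), Pdgfrb and Pecam1. Cxcl12, Lepr, Col1a1, Cdh5 and Kdr of that list did not pass the filter. Of these, the falls of Ccr9 (dendritic cells), Igll1 (B cells) and Cd4 (T and NK cells) passed the filter through the CD libraries and the rise of Klrb1c (T and NK cells) through the HCD libraries, so these counts lean to the calls made. Cd3e was listed at 0 in all 6 libraries, and Lepr and Cdh5 were under 0.1 FPKM in each.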

How the data were processed

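The deposited values are FPKM per gene and library, taken from the values themselves, since no unit is named in the file headers and RPKM would look alike. The submitters' processing notes name fastp, HISAT2, StringTie, GRCm38 and mm10, and per the labels' protocols stranded mRNA libraries were made. Their versions, annotation and filters are not stated there. Of 21878 rows, 27 with a date in place of a symbol (0.127% of the FPKM) were left out. Depth was estimated from the smallest values of genes with a single transcript.

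limma 3.58.1 (R 4.3.3) with trend and robust empirical Bayes was fitted to the 10676 genes that reached 1 FPKM in 3 or more libraries. The fit was on log2(FPKM + 1), two-sided and unpaired. A log2 change on this scale understates that of low genes. Ratios used the exact permutation test of scipy 1.17.1, and sequences biopython 1.88. The 10 receptor genes, the 12 pathway lists and the 13 marker lists were chosen with earlier results of these data known. The results of 2 of the pathway lists are not reported here. In a pathway list up to 4 genes past the threshold with the smallest p were named, and up to 3 like genes per member that passed. Cd34, Flt3, Pdgfrb, Adgre1, Il1r2, Spi1 and the other genes named without passing were chosen after their values were seen.

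Deviations from the group means correlated by 0.103, 0.292 and 0.166 between same-numbered libraries, each above the bound of 0.1, so the numbers were treated as possible pairs in an alternative fit, although no label states a pairing. For other pairs the correlation was -0.25 to 0.0983.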

Additional observations from a re-analysis of the deposited data

How the results depend on the processing

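Settings tried were quantile normalization, a pseudocount of 0.1, TMM-type scaling, a filter of 5 FPKM, no filter, removal of the trend with transcript length, the replicate block and leaving out each library. No setting turned the direction of a receptor gene that passed. Against 5 as reported, 4 to 6 of the 10 receptor genes passed under the settings that keep all libraries, with the replicate block 6, and 2 to 6 when 1 library was left out. Over all genes 1488 passed as reported, 1149 to 1873 under the settings that keep all libraries, with the replicate block 1873, and 439 to 2707 when 1 library was left out. The lowest was without CD replicate 1 and the highest without HCD replicate 2. The split of higher and lower calls was 670 and 818, but 752 and 619 with TMM-type scaling and 784 and 588 with the length trend removed. The replicate block changed no other call of a receptor gene than that of Ifngr1. The filter of 5 FPKM leaves 8 receptor genes tested, without Csf2ra and Csf2rb2. Of the 8 chain ratios, 0 values moved by more than the SD between replicates with the pseudocount of 0.1, quantile normalization or the length trend removed. TMM-type scaling and the replicate block leave the mean change of a ratio as it is by construction. Leaving out 1 library of 3 cannot shift it by that SD, so those settings do not test its stability. Without HCD replicate 2 the log2 change of Csf2ra to Csf2rb was -0.15, against -0.36 as reported. The sum of both beta chains was added after seeing the data. With 3 libraries a group, a change whose interval includes 0 cannot be told from none. The intervals are not adjusted for the number of genes tested.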
